A study of Homo sapiens with 10 samples.

Results

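NEAT1 and MALAT1 are neighbouring genes for long non-coding RNAs on human chromosome 11, and their chromatin was followed here in 10 CUT&RUN libraries. In hg19, NEAT1 spans 65190269 to 65213011 (22743 bp) and MALAT1 spans 65265233 to 65273940 (8708 bp). The deposited tracks give mean read depth per base in 1-kb bins, and a bin belonged to a gene when its centre lay inside it. This gave 23 bins for NEAT1 and 9 for MALAT1, 32 of 2820626 bins in all. The local background was the other 218 bins between 65100000 and 65350000. Each level is a bin's depth divided by the average of its library over all bins, so that 1 is the genome average. Levels show how the signal was distributed and not how much of a mark a cell held.

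CUT&RUN releases the DNA under an antibody with a tethered nuclease. Gamma-H2AX, the phosphorylated form of the histone variant H2AX, was profiled in the erythroleukaemia line K562 at 1 h (n = 2) and 24 h (n = 2) after 6 Gy from a cobalt source, and in the liver carcinoma line HepG2 at 1 h after the same dose (n = 1). Unirradiated cells of both lines were profiled for H2AX (n = 2 in each), although the antibody field of these 4 libraries names histone H4. H3K27me3 was profiled in K562 at 1 h after 6 Gy (n = 1). No untreated gamma-H2AX library was used here, so irradiation and antibody cannot be told apart in any comparison of gamma-H2AX with H2AX, and the labels do not say that replicates were separate cultures.

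Both RNAs stay in the nucleus and are among the most abundant non-coding transcripts of many cell types. NEAT1 is the scaffold of paraspeckles and is made as a short and a long isoform that share their start. MALAT1 gathers at nuclear speckles, where splicing factors are stored, and is named for its association with metastasis of lung tumours. Gamma-H2AX is laid down by the kinases ATM, ATR and DNA-PK and spreads over long stretches of chromatin on either side of a double-strand break. H3K27me3 is written by Polycomb complexes and marks silenced genes. RNA was not measured in these libraries, so how strongly either gene was transcribed in them cannot be read.

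Mean depth per base lay between 0.324 and 1.77 over the 10 libraries. Low depths moved in units of 60 bp in 3 libraries (H3K27me3 and both gamma-H2AX replicates of K562 at 1 h) and of 41 bp in the other 7. These units were read as the length of 1 read, which cannot be told apart from the group where the 2 sets are compared. Over chromosome 9 from 22 to 24 Mb the K562 libraries read 0.000555 to 0.00418 and the HepG2 libraries 0.942 to 1.03, and no library went against its cell line label there. Replicate 1 at 24 h stood apart. The highest mean 1 h depth of any bin in which it was above 0 was 1.642, a limit thus taken from this library itself. Every bin above that 1 h depth, 33.1% of all bins, therefore read exactly 0 in it, against 0.316% of the same bins in replicate 2. Around the 2 genes this held for 210 of 250 bins, including 18 of 23 in NEAT1 and 1 of 9 in MALAT1. It was therefore left out of the tests, and its values are given beside them.

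RefSeq (GRCh38.p14) places FRMD8 before NEAT1, MIR612 inside NEAT1, the non-coding genes FAUP4, ENEMAL and LINC02736 between the 2 members, and TALAM1 (antisense) and MASCRNA over MALAT1. CUT&RUN depth has no strand, so signal over MALAT1 and TALAM1 cannot be separated. The RefSeq promoter table held 2 entries for MALAT1 and matched 1 of the 2 members. They are shown because the first 5-kb block of the gene had the least K562 H2AX of the region. Each runs from 250 bases before an annotated start to 50 after it on the plus strand, 5′ to 3′, in GRCh38.p14 and not in the build of the tracks, and capitals mark the motifs found.
MALAT1 promoter 1, chr11:65497488-65497787: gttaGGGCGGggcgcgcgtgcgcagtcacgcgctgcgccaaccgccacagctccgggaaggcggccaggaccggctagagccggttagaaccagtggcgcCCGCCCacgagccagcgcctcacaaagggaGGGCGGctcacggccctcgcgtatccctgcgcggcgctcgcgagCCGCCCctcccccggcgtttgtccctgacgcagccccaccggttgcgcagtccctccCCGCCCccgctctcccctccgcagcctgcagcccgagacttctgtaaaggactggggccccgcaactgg
MALAT1 promoter 2, chr11:65498795-65499094: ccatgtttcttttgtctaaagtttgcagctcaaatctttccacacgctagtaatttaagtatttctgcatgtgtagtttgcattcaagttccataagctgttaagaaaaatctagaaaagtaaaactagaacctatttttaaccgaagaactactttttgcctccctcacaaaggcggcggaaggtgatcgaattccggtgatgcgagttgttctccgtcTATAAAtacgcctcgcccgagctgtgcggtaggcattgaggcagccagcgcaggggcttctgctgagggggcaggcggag
The first has 73.7% G and C and the second 46.0%, against a median of 58.7% over 35116 promoters. The capitals in the first are 5 copies of GGGCGG on either strand (the GC box, bound by SP1 and its relatives), which 45.0% of promoters hold at least once. The capitals in the second are a single TATAAA (the TATA box), which 11.5% hold. Neither contained CCAAT (34.6% of promoters), TGACTCA (4.95%), CACGTG (7.26%) or TTCNNGAA (7.74%) on either strand.

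**Figure D1:**
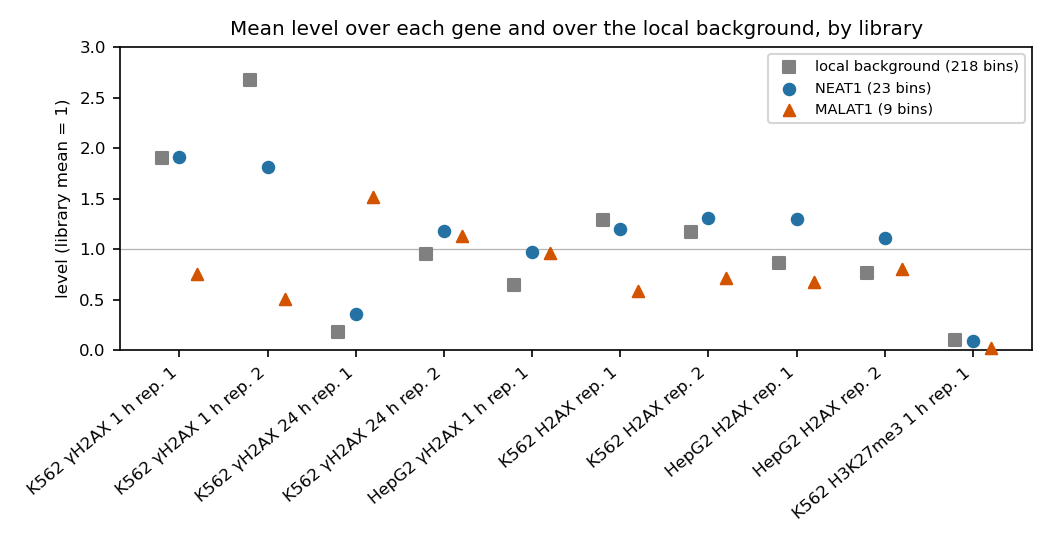
Mean level over NEAT1 (23 bins), MALAT1 (9 bins) and the local background (218 bins) in each of the 10 libraries, as multiples of the library mean; each point is 1 library. At 1 h in K562, MALAT1 reads 0.755 and 0.504 where the local background reads 1.90 and 2.68, whereas in HepG2 gamma-H2AX it lies above its local background, 0.965 against 0.641.

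How the mark was spread after irradiation, relative to its parent histone in unirradiated cells, was asked first in K562. The locus lay in chromatin with much gamma-H2AX. The local background read 1.90 and 2.68 times the library mean in the 2 replicates, against 1.28 and 1.17 in untreated H2AX. NEAT1 was also above the genome average in both 1 h libraries, and MALAT1 was below it in both.

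Over NEAT1, gamma-H2AX at 1 h read 1.91 and 1.81, and untreated H2AX read 1.20 and 1.31. Both irradiated libraries lay above both H2AX libraries. Among 119421 tiles of 23 kb laid over the genome so that 1 of them was NEAT1, 88.4% and 86.1% had less gamma-H2AX than NEAT1 in the 2 replicates. The log2 fold change over H2AX was 0.55 (SE 0.15, limma adjusted p = 0.00913, n = 2 against 2), at the 84.2 percentile of all tiles. The background is high: 63.0% of the tiles passed the same test, 24.4% as higher and 38.7% as lower, so the call does not set NEAT1 apart. Leaving out H2AX replicate 1 gave 0.49 with an adjusted p of 0.0982, and putting 24 h replicate 1 back into the shared spread gave the same fold with an adjusted p of 0.493.

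Over MALAT1, gamma-H2AX at 1 h read 0.755 and 0.504, and untreated H2AX read 0.582 and 0.720. The 2 groups overlapped. The log2 fold change was -0.06 (SE 0.25, limma adjusted p = 0.842, n = 2 against 2), where 54.2% of 304483 tiles of 9 kb passed (18.0% higher, 36.2% lower). Its sign was not stable: median-of-ratios scaling gave 0.048, and leaving out 1 h replicate 2 gave 0.21. Of all tiles, 13.1% and 23.2% had less H2AX than MALAT1 in the K562 replicates, and 46.7% and 32.8% had less gamma-H2AX. Low H2AX over MALAT1 was thus measured in cells that had not been irradiated.

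Set against its surroundings, MALAT1 was a gap in gamma-H2AX. It held 39.7% and 18.8% of the level of the local background in the 1 h replicates. In untreated H2AX it held 45.3% and 61.5%. All 9 of its bins were below the median bin of the local background in each of these 4 libraries. Dividing each tile by the rest of the 250 kb centred on it, gamma-H2AX was lower relative to H2AX, with a log2 difference of -1.02 (SE 0.27, limma adjusted p = 0.0107, n = 2 against 2). The value lay at the 6.42 percentile of tiles, and 24.0% of 304157 tiles passed, 7.70% as higher and 16.3% as lower. The call rested on single libraries. Without 1 h replicate 2 the difference was -0.55 (adjusted p = 0.124) and without H2AX replicate 2 it was -0.81 (adjusted p = 0.175). It was also lost with no filter on low tiles (adjusted p = 0.0581) and with 24 h replicate 1 in the shared spread (adjusted p = 0.703), both at -1.02.

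NEAT1 as a whole did not stand out from its surroundings in the same way. It held 100.3% and 67.7% of the local background in gamma-H2AX and 93.8% and 112.0% in H2AX. The difference in log2 was -0.25 (SE 0.16, limma adjusted p = 0.275, n = 2 against 2), where 32.0% of 119169 tiles passed, 11.6% as higher and 20.3% as lower. The 1 h replicates disagreed: without replicate 1 the value was -0.51 with an adjusted p of 0.000931, and without replicate 2 it was 0.0084.

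**Figure D2:**
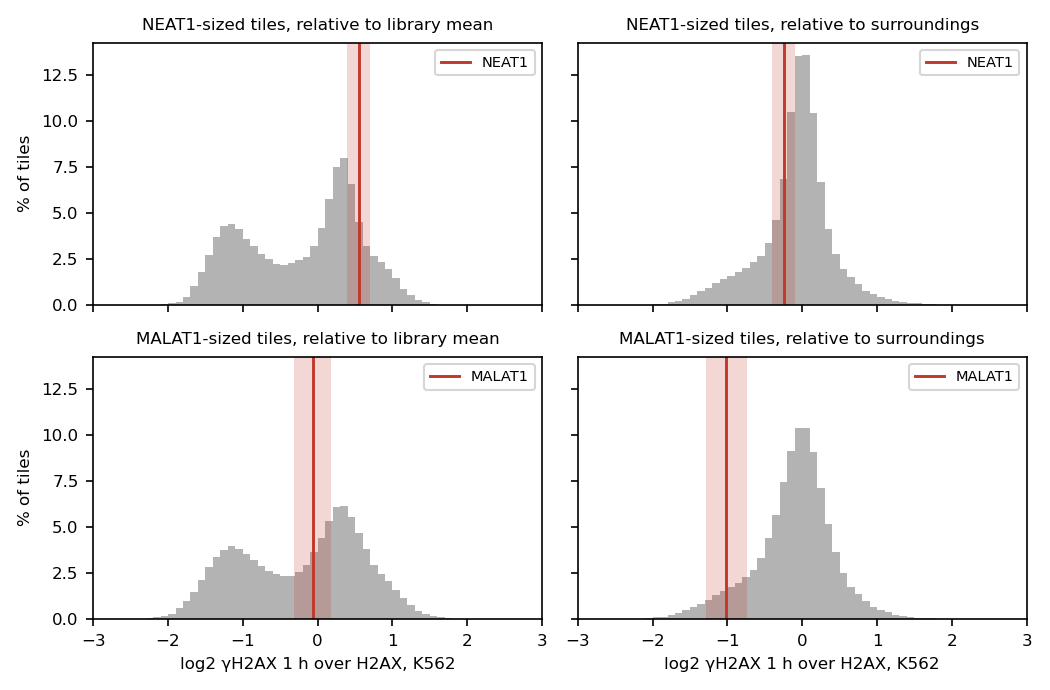
Percent of all tiles (grey bars, steps of 0.1) by log2 of K562 gamma-H2AX at 1 h over untreated H2AX, for tiles of the size of NEAT1 (top) and MALAT1 (bottom), relative to the library mean (left) and to the rest of the surrounding 250 kb (right). The red line is the gene and the band 1 SE on either side: NEAT1 lies at 0.55 and -0.25, MALAT1 at -0.06 and -1.02.

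Inside NEAT1 the 2 ends differed. In the first 5 bins gamma-H2AX at 1 h read 1.00 and 0.539, and in the other 18 bins it read 2.16 and 2.16. Untreated K562 H2AX read 0.348 and 0.761 in the first 5 bins and 1.44 and 1.46 in the rest. HepG2 H2AX showed the same split, with 0.567 and 0.708 at the start and 1.50 and 1.22 in the rest. The first 5 bins read lower than the rest in all 6 of these libraries. The 5 bins were chosen after their values were seen and have no test.

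The lowest gamma-H2AX of NEAT1 at 1 h was in its first 3 bins, with replicate means of 0.58, 0.76 and 0.71. The first bin, which holds the start of the gene, had only 0.12 and 0.06 of H2AX in K562 and 0.53 and 0.13 in HepG2. About 28.3 and 61.9 reads lay over the first 5 bins together in the K562 H2AX libraries, so the level of this bin rests on few reads. The highest was the bin from 65206001, with 4.35 and 3.43 at 1 h and 1.48 and 1.52 in H2AX. The bins from 65210001 and 65208001 followed, with means of 3.50 and 3.08. All 3 lie in the part of the gene that only the long isoform covers.

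In MALAT1 the lowest bins at 1 h were those from 65268001, 65267001 and 65266001, with means of 0.28, 0.40 and 0.48. The highest was the last bin, from 65273001, with 1.59 and 0.92, and the bins from 65265001 and 65272001 had means of 0.82 and 0.72. In neither replicate did a bin of MALAT1 reach 2.18, the median of the 5-kb blocks across the region at 1 h. HepG2 H2AX read 0 and 0.16 in the bin from 65266001. In the bin from 65267001 it read 0 and 1.00, and in that from 65268001 it read 0.40 and 0.71. About 34.3 and 59 reads lay over the first 5 bins of MALAT1 in these 2 libraries, so a single bin rests on few reads.

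**Figure D3:**
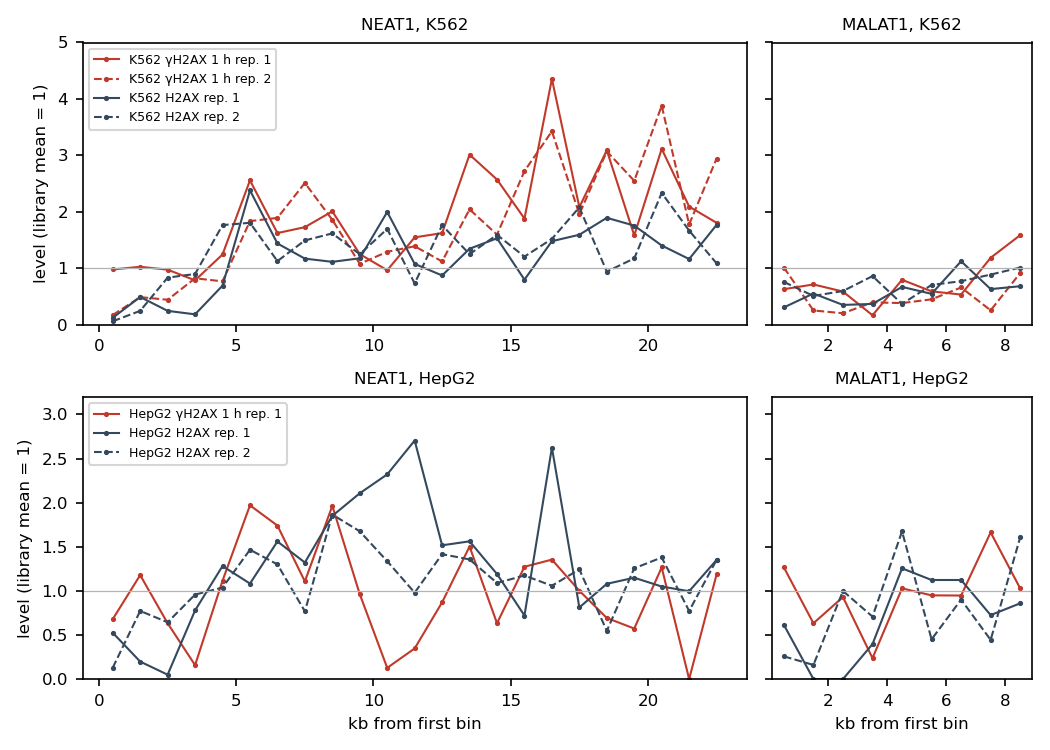
Level in each 1-kb bin of NEAT1 (left) and MALAT1 (right) in K562 (top) and HepG2 (bottom), as multiples of the library mean, with gamma-H2AX at 1 h in red and untreated H2AX in blue; solid and dashed lines are replicates 1 and 2. In K562 both marks start low in NEAT1 and climb after about 5 bins, up to 4.35 for gamma-H2AX, while MALAT1 stays at or below 1.59 throughout.

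Low gamma-H2AX also reached upstream of both genes, where K562 H2AX was near the genome average or above it. The stretches of 5 bins were chosen after their values were seen and have no test. In the 5 bins before NEAT1, gamma-H2AX at 1 h read 0.742 and 0.563 and K562 H2AX read 0.995 and 0.994. In the 5 bins before MALAT1 it read 0.865 and 0.925, and H2AX read 1.30 and 1.16. After the genes the mark was high again, with 2.86 and 4.22 in the 5 bins after NEAT1 and 1.77 and 2.28 in the 5 after MALAT1.

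The region from 65100000 to 65350000 was divided into 50 blocks of 5 kb. The log2 ratio of gamma-H2AX to H2AX had a median of 0.82 over them. The 3 lowest blocks were 65140001 to 65145000 (-0.61), 65185001 to 65190000 (-0.57), just before NEAT1, and 65260001 to 65265000 (-0.44), just before MALAT1. The block with the least gamma-H2AX itself was 65265001 to 65270000 in MALAT1, with a mean of 0.515, and it also had the least K562 H2AX, 0.535. The block from 65140001, in neither gene, had the most H3K27me3 of the region, 0.530. These blocks were ranked on the values given and have no test.

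**Figure D4:**
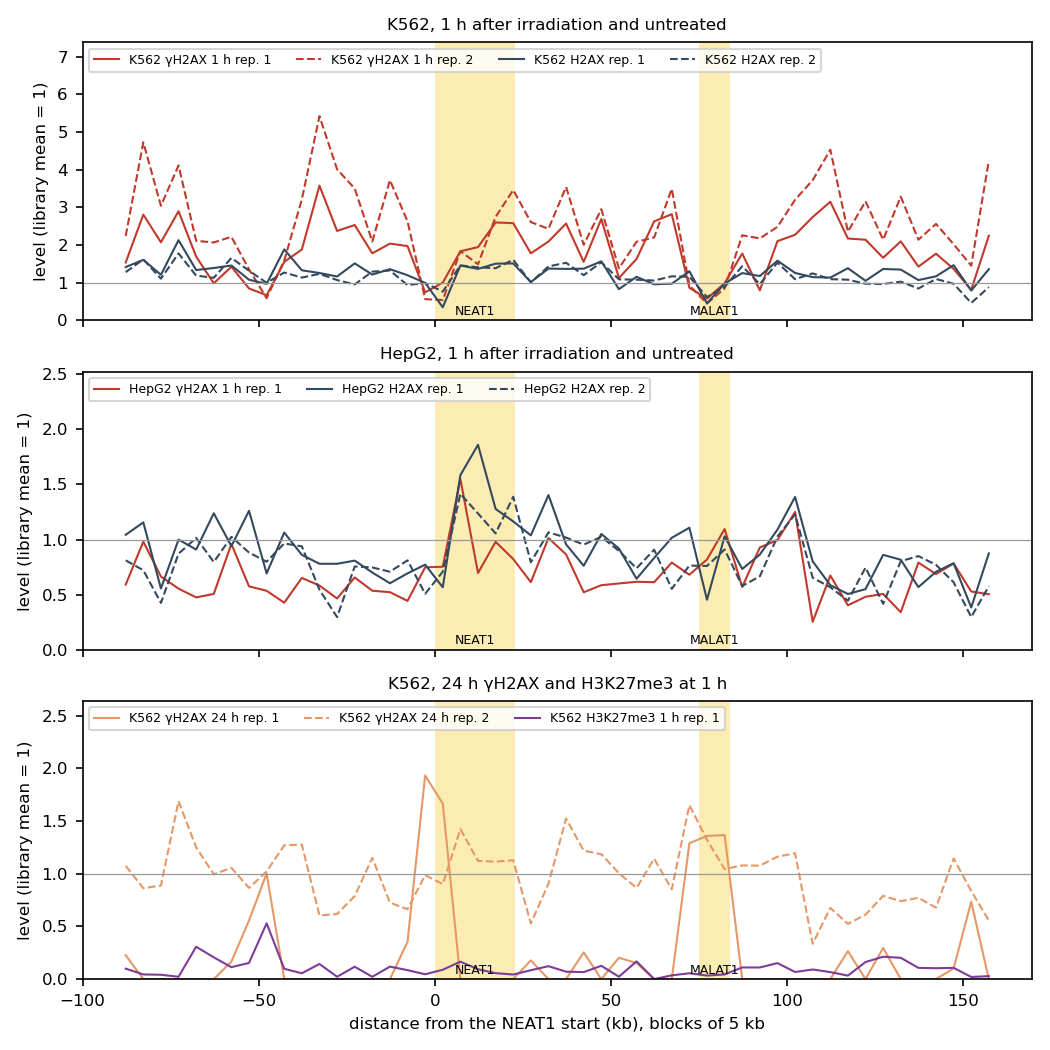
Level in 5-kb blocks over 250 kb around the 2 genes (yellow), as multiples of the library mean, against distance from the NEAT1 start; red is gamma-H2AX at 1 h, blue untreated H2AX, orange gamma-H2AX at 24 h and purple H3K27me3, with solid and dashed lines for replicates 1 and 2. In K562 at 1 h both replicates fall below 1 just before NEAT1 (0.742 and 0.563) and in the first 5 bins of MALAT1 (0.579 and 0.450). The 24 h replicate 1 track is 0 wherever 1 h depth exceeds 1.642, so that its signal can lie only in such dips.

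The deposited peak lists of the 1 h libraries, 1 per library and in the broad layout of MACS2, placed 1 peak in NEAT1 in each replicate and 0 in MALAT1 in either. In replicate 1 the peak ran from 65206048 to 65206480 with a fold of 2.34 given by the authors' caller (q = 0.0641). It lies in the bin with the most gamma-H2AX of the gene. In replicate 2 it ran from 65212775 to 65213457 (fold 1.57, q = 0.203) across the 3′ end of NEAT1. These peaks covered 1.90% and 1.04% of NEAT1, and peaks covered 2.78% and 11.9% of the whole region, with 6 and 14 peaks in the 2 lists. With q under 0.05 only, neither gene had a peak. The share of tiles of each gene's size that hold a peak was not counted, so these peak counts do not set either gene apart. The lists of K562 at 24 h and HepG2 at 1 h, in the narrow layout, had 0 peaks in the region, but they hold only 8, 13 and 170 peaks over the whole genome, against 41947 and 46072 in the 1 h lists, so nothing was read from these zeros.

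Recovery was followed by setting K562 gamma-H2AX at 1 h against 24 h. For both genes the 24 h side of the test was replicate 2 alone, with a spread taken from the other groups. The SE and p therefore do not measure variation between 24 h libraries. Low depths moved in units of 60 bp at 1 h and of 41 bp at 24 h, which cannot be told apart from time. NEAT1 read 1.18 in 24 h replicate 2, which is below both 1 h libraries and just below the H2AX libraries at 1.20 and 1.31. The log2 fold change of 1 h over 24 h was 0.63 (SE 0.19, limma adjusted p = 0.0137, n = 2 against 1), and 54.7% of tiles passed, 17.7% as higher and 37.0% as lower at 1 h. With 24 h replicate 1, which reads 0.362 over the gene, in the group it was 1.42 with an adjusted p of 0.0605.

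MALAT1 read 1.13 in 24 h replicate 2, above both 1 h libraries and above both K562 H2AX libraries. Its log2 fold change of 1 h over 24 h was -0.82 (SE 0.30, limma adjusted p = 0.0404, n = 2 against 1), with 46.3% of tiles passing, 15.0% as higher and 31.3% as lower at 1 h. The call was lost in 9 of 14 alternatives, with adjusted p up to 0.157, among them 5 of the 6 fits that left out a library, all but the one without 1 h replicate 1. Relative to H2AX, 24 h replicate 2 stood at 0.75 in log2 over MALAT1, -0.09 over NEAT1 and -0.35 in the local background, values with no test. The first 5 bins of MALAT1 read 1.32 in this library and 0.450 and 0.619 in K562 H2AX, while the other 4 read 0.882 against 0.747 and 0.845. In 24 h replicate 1 MALAT1 read 1.51 against 0.177 in the local background, where 210 of 250 bins of the region were at 0, and nothing was read from that contrast.

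In HepG2 the same comparison with untreated H2AX gave another picture. NEAT1 read 0.971 in gamma-H2AX and 1.30 and 1.11 in H2AX, and MALAT1 read 0.965 in gamma-H2AX and 0.677 and 0.800 in H2AX. The single gamma-H2AX library lay below both H2AX libraries over NEAT1 and above both over MALAT1. The log2 fold changes were -0.29 (SE 0.19, limma adjusted p = 0.801, n = 1 against 2) and 0.37 (SE 0.30, limma adjusted p = 0.794, n = 1 against 2), with that library assumed to vary like the others. Of the tiles, 0 of 119421 and 0 of 304483 passed in limma, with 7838 and 24522 at an unadjusted p under 0.05. On a 10-kb grid the tile that MALAT1 overlaps most, 65260001 to 65270000, gave -0.038. It takes in the 5-kb block before the gene (log2 ratio -0.43) beside the first block of MALAT1 (0.40), so it is not a value of the gene alone.

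The HepG2 locus was poor in gamma-H2AX where that of K562 was rich. Its local background read 0.641, against 0.868 and 0.768 in HepG2 H2AX, a log2 ratio of -0.33 where K562 had 0.86. Both genes lay above this lower background, with NEAT1 at 151.4% and MALAT1 at 150.4% of the local level. Against the genome they were not high: 46.3% and 46.7% of tiles of their sizes had less gamma-H2AX in this library. For NEAT1 the HepG2 H2AX libraries were as far above the local level, at 149.5% and 144.8%. For MALAT1 they were at 78.1% and 104.2%, and only 1 of its 9 bins was below the local median in gamma-H2AX.

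The difference between the lines was tested as an interaction, each against its own H2AX. Over NEAT1 the ratio of gamma-H2AX to H2AX was higher in K562 than in HepG2 by 0.84 in log2 (SE 0.24, limma adjusted p = 0.0195). This call lay at the 90.6 percentile, with 40.1% of tiles passing, 13.1% as higher and 27% as lower. It was lost without either H2AX replicate of either line (adjusted p from 0.0548 to 0.106), and with 24 h replicate 1 in the shared spread (adjusted p = 0.699). For MALAT1 the difference was -0.43 (SE 0.39, limma adjusted p = 0.438), with 27% passing, 8.67% as higher and 18.3% as lower.

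Relative to the surrounding chromatin, the difference between lines passed for MALAT1 and not for NEAT1. For MALAT1 the difference between lines was -1.68 (SE 0.43, limma adjusted p = 0.0203, n = 2 against 2 in K562 and 1 against 2 in HepG2), at the 1.09 percentile of tiles. Of all tiles 10.2% passed, 3.24% as higher and 6.94% as lower. The value lay between -2.15 and -1.21 when each library in turn was left out, and the call was lost in 4 of these 6 fits, those without an H2AX replicate of either line, with adjusted p up to 0.138. It was also lost with no filter on low tiles (adjusted p = 0.0944) and with 24 h replicate 1 in the fit (adjusted p = 0.878). For NEAT1 the local difference was -0.32 (SE 0.25, limma adjusted p = 0.441), with 18.1% passing, 6.18% as higher and 11.9% as lower. Without 1 h replicate 1 it was -0.58. On a 10-kb grid it was 0.15, for a tile from 65200001 to 65210000 that holds only a part of NEAT1.

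H3K27me3 was close to absent from both genes. NEAT1 read 0.0923 and MALAT1 0.0280 times the library mean, and the local background read 0.105. Against K562 H2AX the log2 fold changes were -3.20 (SE 0.19, limma adjusted p = 3.4e-08, n = 1 against 2) and -3.16 (SE 0.30, limma adjusted p = 2.8e-07, n = 1 against 2). The mark has a single library, whose spread was taken from the replicates of the other antibodies, so the SE and p do not measure variation between H3K27me3 replicates. Most of the genome is low in this library: the medians of all tiles were -1.79 and -1.91, and 87.5% and 85.0% of tiles passed, 23.8% and 21.4% as higher and 63.7% and 63.6% as lower. MALAT1 had 6 of 9 bins at exactly 0, with about 4.57 reads over the gene on the step length taken above, and NEAT1 had 8 of 23. In the same library 83 of 218 bins of the local background and 27.1% of all bins were at 0, so the NEAT1 share was no higher than that of its surroundings. At that depth the levels of the 2 genes cannot be ranked.

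In untreated H2AX the replicates of the 2 lines overlapped over both genes. NEAT1 read 1.26 ± 0.0751 (SD, n = 2) in K562 and 1.20 ± 0.131 (SD, n = 2) in HepG2. MALAT1 read 0.651 ± 0.0974 (SD, n = 2) and 0.739 ± 0.0867 (SD, n = 2). The local background differed more, 1.23 ± 0.0808 (SD, n = 2) against 0.818 ± 0.0707 (SD, n = 2). Log2 ratios of K562 to HepG2 were 0.06, -0.17 and 0.56, with no test. The order over K562 H2AX was MALAT1 below NEAT1, with no overlap between the replicates of the 2 genes. NEAT1 and the local background (1.28 and 1.17) overlapped. About 85.2 and 105.2 reads lay over MALAT1 in the K562 H2AX libraries and 161.8 and 133.6 at 1 h, and these numbers limit the precision of its levels.

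The tiles most like NEAT1 over the 9 libraries of the fit were on chromosomes 7 (from 22755001), 1 (from 93089001), 17 (from 49228001), 11 (from 95964001) and 8 (from 100725001), with a root mean square difference of 0.07 to 0.10 in log2, against a median of 0.96 for all tiles. Those most like MALAT1 were on chromosome 4 (from 142521001, 116898001 and 67119001), chromosome 14 (from 44448001) and chromosome 7 (from 53187001), at 0.16 to 0.19 against a median of 1.08. Their genes were not looked up, as no hg19 annotation was used here.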

How the data were processed

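CUT&RUN signal was analysed from 10 tracks and 5 peak lists. Per the submitters' processing notes, BWA 0.7.12, SAMtools and MACS2 were used with hg19; their roles and settings were not given in the labels. The deposited tracks hold signal, as mean coverage per base in 1-kb bins, not scaled to depth. The authors' peak lists give a score (not used), a fold ratio, and p- and q-values as −log10. What control that fold refers to: not given in the sources used here.

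Each bin was divided by its library mean. Chromosome Y was left out, and tiles of 23 kb (anchored on NEAT1) and 9 kb (anchored on MALAT1) with at least 50% of their bins were averaged. Tiles were tested where untreated H2AX of both lines averaged at least 0.25, on log2(level + 0.05), so fold changes that involve levels near 0 are understated. Tests used limma 3.58.1 (R 4.3.3), whose prior variance followed the mean: 9 libraries, 6 group means, 3 residual degrees of freedom, two-sided, Benjamini-Hochberg over all tiles, threshold 0.05. Local tests subtracted the log2 level of the other bins of the 250 kb centred on the tile. Scripts were tested on simulated data. Replicate p-values measure the spread between libraries, which may be technical. Read numbers derived from depth cover counting error only.

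The members, lists and the exclusion of 24 h replicate 1 were chosen with earlier results of these data known. Named were the members, the 3 highest and 3 lowest bins of each by K562 1 h level, and the 5 nearest tiles. Lists of paraspeckle and speckle protein genes were not used, since no hg19 annotation was used here. Promoters came from RefSeq (GRCh38.p14). Alternatives varied the pseudocount, filter, scaling, libraries, block, tile grid and surroundings. Python 3.11.15, numpy 2.4.6, pandas 2.3.3 and matplotlib 3.10.9 were used.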

Additional observations from a re-analysis of the deposited data

Results flagged for a closer look

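The ratio of gamma-H2AX at 1 h to untreated H2AX differed between K562 and HepG2 by the interaction test in 2 cases. For NEAT1 the difference was 0.84 in log2 (limma adjusted p = 0.0195), higher in K562, where 40.1% of tiles of its size passed. Relative to its surroundings the NEAT1 difference was -0.32 and did not pass. For MALAT1 relative to its surroundings the difference was -1.68 (limma adjusted p = 0.0203), lower in K562, where 10.2% passed. Relative to the library mean it was -0.43 and did not pass. The local background of both genes also differed, with a log2 ratio of gamma-H2AX to H2AX of 0.86 in K562 and -0.33 in HepG2, values with no test. Each call was lost in 4 of the 6 fits that left out a library, with adjusted p up to 0.106 and 0.138, and with all 10 libraries (0.699 and 0.878). The HepG2 side is a single library in both, and read length differs between the 1 h libraries of the lines.

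MALAT1 read 1.51 in K562 24 h replicate 1, a library left out of the tests reported, above the 0.582 and 0.720 of untreated K562 H2AX. That track read 0 wherever the 1 h depth exceeded 1.642, which was 33.1% of all bins and 1 of the 9 bins of MALAT1. Signal could thus remain only where 1 h depth was low, and the zeros lower the library mean that levels are divided by. How far this accounts for the level over MALAT1 was not tested, and nothing about 24 h was read from that level.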

How the results depend on the processing

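Of 200 recalculations of 14 gene tests, 165 kept direction and side of the threshold, 27 lost the call, 2 gained it and 6 changed sign. The 165 include tests that passed in neither fit. They also include recalculations that could not change the estimate, such as leaving out a HepG2 library for a comparison within K562. That count is therefore not a measure of how firm the calls are. With all 10 libraries the calls were lost for NEAT1 in K562 at 1 h over H2AX (0.55, adjusted p = 0.493), 1 h over 24 h (1.42, 0.0605) and the difference between lines (0.84, 0.699), and for MALAT1 in both local tests (-1.02, 0.703, and -1.68, 0.878); that library widens the shared spread. Without a filter both local MALAT1 calls were lost (-1.02 and -1.68), as was MALAT1 at 1 h over 24 h (-0.82, adjusted p = 0.0684). The last was also lost with median-of-ratios scaling (-0.67, 0.0884) and with only the libraries compared (-0.82, 0.157). Signs changed for MALAT1 in K562 at 1 h over H2AX with median-of-ratios scaling (0.048). On the 10-kb grid they changed for MALAT1 in HepG2 (-0.038) and the local difference between lines for NEAT1 (0.15). A gene stood there as the 1 grid tile it overlaps most. For NEAT1 this was 65200001 to 65210000, only a part of the gene. For MALAT1 it was 65260001 to 65270000, which also takes in sequence before the gene. The grid fits thus measured other stretches than the gene tests. Except where said, the cause was not tested.

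Leaving out each library in turn gave, for NEAT1, 0.49 to 0.61 in K562 at 1 h over H2AX, 0.73 to 0.95 for the difference between lines, -0.51 to 0.0084 and -0.58 to -0.065 for the 2 local tests. For MALAT1 it gave -0.33 to 0.21 in K562 over H2AX, -1.09 to -0.55 for 1 h over 24 h, -1.48 to -0.55 and -2.15 to -1.21 for the local tests. The H3K27me3 values, from a single library with a borrowed spread, stayed past the threshold in all 14 alternatives each, none of which replicates that library, from -3.63 to -1.62 for NEAT1 and from -4.11 to -1.69 for MALAT1. Median-of-ratios scaling raised H3K27me3 by 1.79 and 1.92 and moved the other libraries by -0.27 to -0.11.

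The labels do not say whether libraries with the same replicate number share a batch. Deviations of same-numbered libraries correlated at 0.0276 to 0.111 over NEAT1-sized tiles and 0.0169 to 0.0631 over MALAT1-sized tiles, all positive. With a replicate block the test of MALAT1 at 1 h over 24 h gave -0.82 (adjusted p = 0.0515); no other gene call changed.

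The share of tiles called ranged widely with the settings. For NEAT1-sized tiles in K562 at 1 h over H2AX it ran from 8.82% (all 10 libraries) to 79.1%, against 63.0%; for 1 h over 24 h from 28.8% to 65.3%, against 54.7%; for HepG2 from 0% to 8.61%; and for the difference between lines from 0% to 62.7%, against 40.1%. For MALAT1-sized tiles these ran from 0% to 65.3%, from 24.8% to 58.0%, from 0% to 3.91% and from 0% to 51.0%, against 54.2%, 46.3%, 0% and 27%. In the local tests they ran from 0% to 39.7% and 31.9% for NEAT1-sized tiles and from 0% to 30.7% and 22.2% for MALAT1-sized tiles. Peak coverage of NEAT1 fell to 0% in both lists at q under 0.05, and in replicate 2 where at least 50% of a peak had to lie in the gene.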
